A study of Mus musculus with 4 samples.

Results

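The striated muscle genes are 38 genes whose products build or control the contractile machinery of skeletal and cardiac muscle, read here in RNA from primary rib chondrocyte cultures, the cells that form the cartilage of the ribs. They were taken by name from a list that was proposed with the contrast between mutant and control cultures of these data in view, so that contrast is given for them as a description and no test of it is claimed. A read was counted for 18298 genes in 1 or more of the samples. Of the 38 members, 36 were listed with at least 1 read and 34 had at least 10 counts in at least 2 samples, the minimum for the 14123 genes that entered the fit. Myf5 and Myf6 were listed in no sample, and Pax7 and Myh2 did not reach the minimum. The minimum was met in both Senp6-Mut samples by all 34, while 5 of them (Myh7, Mybpc1, Xirp1, Cacna1s and Ckm) had under 10 counts in at least 1 WT sample. 0 of the 34 were under 10 counts in both WT samples.

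The study asked what loss of SENP6, a protease that removes SUMO chains from proteins, does to skeletal cells. All 4 cultures came from ribs of C57BL/6 mouse embryos at E18.5 that carried the floxed Senp6 allele on both chromosomes, and all were harvested at passage 1. The 2 control samples (Senp6f/f, named WT 1 and WT 2) had no Cre, and the 2 mutant samples (Dermo1-Cre;Senp6f/f, named Senp6-Mut 1 and 2) carried Cre recombinase under the Dermo1 (Twist2) locus, which is active in mesenchymal cells that give rise to cartilage and bone and is not restricted to chondrocytes. Soft tissue was stripped from the ribs by hand and by enzyme before the cartilage was dissociated, and the labels do not say whether replicates came from different embryos, so any p-value here measures the spread between these samples only.

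Skeletal muscle forms when committed precursors, the myoblasts, switch on the bHLH transcription factors MYOD1 and MYOG, leave the cell cycle and fuse into multinucleated fibres. The fibre then fills with sarcomeres, in which myosin motors pull on actin filaments under the control of the calcium sensor troponin, and most sarcomere proteins exist as embryonic, fast and slow versions encoded by separate genes that replace each other as the fibre matures. This program is not part of cartilage formation, and the muscle between the ribs lies against the cartilage that chondrocytes are taken from.

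Counts on the 14123 tested genes summed to between 21007449 in WT 1 and 30983806 in Senp6-Mut 1. Senp6 itself, the targeted gene, had 1125 and 2326 counts in WT 1 and WT 2 and 1839 and 1126 in Senp6-Mut 1 and 2, or 10.8 and 18.0 RPKM in WT 1 and WT 2 and 12.0 and 8.07 in Senp6-Mut 1 and 2, so the groups overlapped and the library labelled WT 1 lay between the libraries labelled Senp6-Mut 1 and 2. These counts span the whole gene, exons outside the deleted part included, and therefore do not check the genotype, and the group names below are those of the labels. Col2a1, the main cartilage collagen, was read at 609 and 659 against 334 and 445 RPKM for WT against Senp6-Mut. The smooth muscle marker Acta2 was above it in every sample, at 951 and 1127 against 1434 and 1299 RPKM. Both Senp6-Mut samples lay below both WT samples for 12 of 12 chondrocyte markers, with a median log2 fold change of -1.75 and a summed share of the reads of 0.526% in both WT samples against 0.280% and 0.340% in Senp6-Mut. Xist, read only from an inactive X chromosome, had 11354 counts in Senp6-Mut 2 and between 2 and 5 elsewhere, so the Senp6-Mut samples also differed in sex.

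The striated muscle genes made up a small part of each library, 0.033% and 0.010% of the counts in WT 1 and WT 2 and 0.057% and 0.063% in Senp6-Mut 1 and 2. Their summed RPKM, which is the count scaled by gene length and by the reads counted in the sample, was 191 and 57.9 in WT 1 and WT 2 and 315 and 365 in Senp6-Mut 1 and 2. Both mutant cultures therefore carried more of these transcripts than either control culture, and WT 1 carried several times more than WT 2. In bulk RNA, fewer cells of a type and less RNA per cell cannot be told apart.

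Both Senp6-Mut samples lay above both WT samples for 28 of the 34 members, on counts scaled to the library total (CPM) with TMM factors, a correction for library composition, where 25.3% of all tested genes did so. Both lay below for 0 of the 34, against 22.8% of all tested genes. The 6 members whose groups overlapped were Myh8, Myh1, Actn3, Tnnt3, Tnni2 and Ckm. The median log2 fold change of Senp6-Mut over WT was 1.57 over the members and 0.010 over all tested genes, with the members spread from -1.49 ± 1.22 (SE) for Ckm to 3.18 ± 0.45 for Myh7. This median was 3.00 without WT 1 and 0.87 without WT 2. No gene of the 14123 had an adjusted p under 0.05 in edgeR's quasi-likelihood test (0% of genes in either direction), and so 0 members were called. At an unadjusted p under 0.05 in the same edgeR test 21 members were higher and 0 lower, where 9.29% of all tested genes were higher and 6.28% lower. DESeq2 called 8 members higher and 0 lower, where it called 3.07% and 1.86% of all tested genes. Nothing is read from these calls, since the same contrast led to the choice of the members, and 2 samples against 2 allow no exact permutation p under 0.333.

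**Figure D1:**
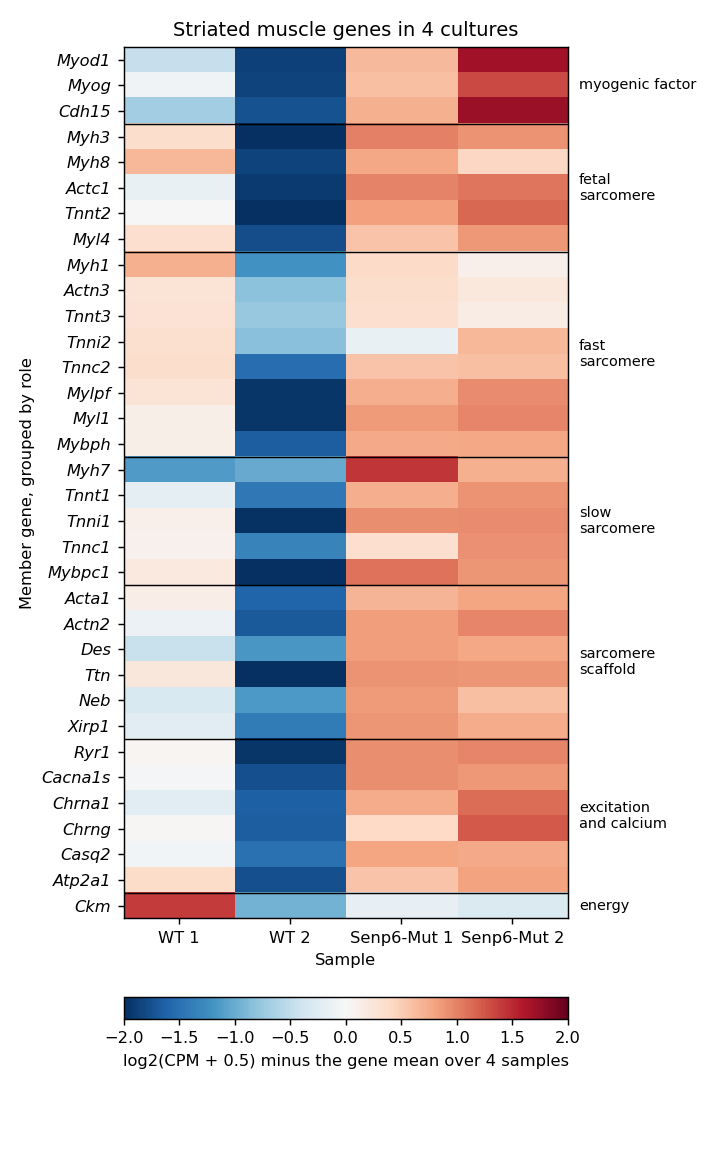
Level of the 34 tested members in each sample, as log2(CPM + 0.5) minus the gene's mean over the 4 samples, with genes in rows grouped by role and colours that stop at 2 in either direction. WT 2 is the lowest column for nearly all rows, the Senp6-Mut columns are mostly above the mean, and Ckm in the last row is highest in WT 1.

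Among the genes that specify muscle cells, Myod1, the transcription factor that commits cells to the muscle lineage, was read at 1.80 and 0.537 RPKM in WT 1 and WT 2 and 4.30 and 9.30 in Senp6-Mut 1 and 2. Myog, which drives myoblasts into terminal differentiation, stood at 5.11 and 1.31 RPKM in WT 1 and WT 2 and 8.57 and 14.7 in Senp6-Mut 1 and 2. Cdh15 (M-cadherin), an adhesion protein of myoblasts and satellite cells, had 0.870 and 0.350 RPKM in WT 1 and WT 2 and 2.70 and 5.75 in Senp6-Mut 1 and 2. Both Senp6-Mut samples lay above both WT samples for all 3 of these genes, where 25.3% of all tested genes did so. WT 2 was the lowest sample and Senp6-Mut 2 the highest in each. The log2 fold changes were 2.51 ± 0.60 (SE), 1.81 ± 0.59 and 2.76 ± 0.53, with only Myh7 above Cdh15 and Myod1 among the members. Pax7, which marks satellite cells and their precursors, had 2 counts in Senp6-Mut 1 and 0 in the other 3 samples. Myf5, an early myogenic factor, and Myf6, a late one, had 0 counts in every sample. A count of 0 allows up to 3 reads, which is 0.143 CPM in WT 1, the shallowest library, and 0.0968 CPM in Senp6-Mut 1, the deepest.

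MYOD1 and MYOG bind E-boxes, sites of the form CANNTG, and prefer CAGCTG among them, so the 250 bases before the start of transcription were read for these letters from RefSeq promoters on GRCm38.p6. Of the 38 members, 31 had a promoter in that table. Myf6, Tnni2, Xirp1, Neb, Tnnt3, Actn3 and Myod1 had none. The promoters of Myog, of the acetylcholine receptor genes Chrng and Chrna1 and of the calcium channel gene Cacna1s are shown because these members were higher in both Senp6-Mut samples and span the factor, receptor and channel roles, and that of Ckm because it was the 1 member with a negative fold change. Every CANNTG is in capitals, and with it every CAGCTG, and each sequence runs 5′ to 3′ on the strand of its gene and ends at the base before the start.
Myog (chr1:134289754-134290003, + strand): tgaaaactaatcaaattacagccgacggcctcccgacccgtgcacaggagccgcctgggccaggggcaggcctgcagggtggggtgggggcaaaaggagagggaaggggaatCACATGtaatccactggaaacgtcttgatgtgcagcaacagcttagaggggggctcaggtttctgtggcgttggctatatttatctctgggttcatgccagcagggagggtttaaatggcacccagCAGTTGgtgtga
Chrng (chr1:87205561-87205810, + strand): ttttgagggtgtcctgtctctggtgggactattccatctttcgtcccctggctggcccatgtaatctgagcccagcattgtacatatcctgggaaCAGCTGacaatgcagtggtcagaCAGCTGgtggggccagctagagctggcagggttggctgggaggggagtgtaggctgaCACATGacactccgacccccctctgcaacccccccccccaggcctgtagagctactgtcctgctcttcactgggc
Chrna1 (chr2:73580339-73580588, - strand): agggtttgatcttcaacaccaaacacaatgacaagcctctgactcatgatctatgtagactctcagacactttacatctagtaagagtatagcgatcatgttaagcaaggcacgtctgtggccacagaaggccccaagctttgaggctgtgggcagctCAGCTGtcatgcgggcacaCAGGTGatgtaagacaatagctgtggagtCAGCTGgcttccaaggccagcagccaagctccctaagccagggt
Cacna1s (chr1:136052561-136052810, + strand): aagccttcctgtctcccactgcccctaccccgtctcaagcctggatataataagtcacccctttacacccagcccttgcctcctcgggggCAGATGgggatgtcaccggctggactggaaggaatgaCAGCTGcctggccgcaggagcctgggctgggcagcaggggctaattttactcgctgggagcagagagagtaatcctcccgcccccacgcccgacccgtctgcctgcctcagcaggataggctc
Ckm (chr7:19410844-19411093, + strand): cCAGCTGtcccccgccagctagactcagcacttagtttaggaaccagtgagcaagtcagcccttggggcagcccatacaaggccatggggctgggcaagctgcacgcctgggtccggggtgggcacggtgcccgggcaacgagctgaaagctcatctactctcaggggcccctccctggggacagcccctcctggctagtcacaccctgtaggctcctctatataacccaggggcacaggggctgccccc

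CAGCTG occurred in 13 of the 31 member promoters (41.9%), against 12.8% of all 27025 promoters. Among tested genes it occurred in 13 of 28 members (46.4%), against 12.0% of the 10411 tested genes that had a promoter. CANNTG, which takes in CAGCTG and reads the same set of sites on both strands, occurred in 24 of 31 (77.4%). That compares with 66.0% of all promoters. Among tested genes CANNTG occurred in 24 of 28 members (85.7%), against 56.9% of all those with a promoter. CAGCTG stood 155 and 132 bases before the start in Chrng, 92 and 44 bases before it in Chrna1 and 123 bases before it in Cacna1s. Ckm, whose fitted fold change was negative but whose groups overlapped, also held a CAGCTG, 249 bases before its start. Myog held CACATG at 138 and CAGTTG at 12 bases before its start and no CAGCTG in this window. A match of letters is a description of these windows, and binding was not measured.

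Among the sarcomere genes of the embryo and fetus, Myh3, the embryonic myosin heavy chain, had 6.72 and 1.08 RPKM in WT 1 and WT 2 and 11.0 and 10.5 in Senp6-Mut 1 and 2. Actc1, the alpha-cardiac actin that is also the main sarcomeric actin of embryonic skeletal muscle, was read at 15.8 and 4.60 RPKM in WT 1 and WT 2 and 36.5 and 39.5 in Senp6-Mut 1 and 2. The heart-type troponin T gene Tnnt2, active in young skeletal fibres as well, stood at 4.06 and 0.745 RPKM in WT 1 and WT 2 and 7.70 and 10.00 in Senp6-Mut 1 and 2. In these 3 genes both Senp6-Mut samples were above WT 1, and on a log scale WT 2 was farther below WT 1 than the mean of the Senp6-Mut samples was above it. The log2 fold changes were 1.41 ± 0.82 (SE), 1.85 ± 0.51 and 1.85 ± 0.66.

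Myl4, the embryonic and atrial essential light chain of myosin, had 16.0 and 3.38 RPKM in WT 1 and WT 2 and 19.5 and 24.8 in Senp6-Mut 1 and 2, with a log2 fold change of 1.15 ± 0.62 (SE). Myh8, the perinatal myosin heavy chain, was read at 2.60 and 0.404 RPKM in WT 1 and WT 2 and 2.92 and 2.31 in Senp6-Mut 1 and 2. For Myh8 the groups overlapped, as Senp6-Mut 2 was below WT 1, and the log2 fold change of 0.75 ± 0.74 was about the size of its error. The 5 genes of this role had a median log2 fold change of 1.41. Both Senp6-Mut samples lay above both WT samples for 4 of the 5, where 25.3% of all tested genes did so.

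The genes of adult fast fibres were the most divided role, with a median log2 fold change of 0.87. Both Senp6-Mut samples lay above both WT samples for 4 of 8 tested members, where 25.3% of all tested genes did so. Mylpf, the fast regulatory light chain, had 14.1 and 2.63 RPKM in WT 1 and WT 2 and 20.2 and 24.4 in Senp6-Mut 1 and 2. The fast essential light chain gene Myl1 was read at 11.1 and 2.40 RPKM in WT 1 and WT 2 and 19.5 and 21.8 in Senp6-Mut 1 and 2. Tnnc2, fast troponin C, stood at 4.12 and 0.651 RPKM in WT 1 and WT 2 and 5.13 and 5.37 in Senp6-Mut 1 and 2. Each of these had its lowest value in WT 2 and its highest in Senp6-Mut 2. Mybph, a myosin-binding protein of the thick filament, had 3.44 and 0.866 RPKM in WT 1 and WT 2 and 5.70 and 5.93 in Senp6-Mut 1 and 2. In all 4 both Senp6-Mut samples exceeded WT 1, and the log2 fold changes were between 1.11 ± 0.71 (SE) for Tnnc2 and 1.56 ± 0.61 for Myl1.

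The remaining fast genes had WT 1 close to the mutants. Actn3, the alpha-actinin of fast Z-discs, had 5.44 and 2.56 RPKM in WT 1 and WT 2 and 5.95 and 5.53 in Senp6-Mut 1 and 2. Fast troponin T, Tnnt3, was read at 8.07 and 3.83 RPKM in WT 1 and WT 2 and 8.68 and 7.83 in Senp6-Mut 1 and 2. Fast troponin I, Tnni2, stood at 3.21 and 1.09 RPKM in WT 1 and WT 2 and 2.23 and 4.56 in Senp6-Mut 1 and 2. WT 1 thus lay within or next to the Senp6-Mut range in each, with only WT 2 apart, and the log2 fold changes of 0.48 ± 0.35 (SE), 0.43 ± 0.37 and 0.62 ± 0.59 were each less than 1.5 times their error. On the deposited RPKM Actn3 did not overlap, so that 29 of the 34 members lay above on that scale. Myh1, the heavy chain of fast IIx fibres, was highest in WT 1, at 0.754 and 0.145 RPKM in WT 1 and WT 2 and 0.607 and 0.497 in Senp6-Mut 1 and 2. Myh2, the heavy chain of fast IIa fibres, had 10 counts in WT 1, 1 in Senp6-Mut 2 and 0 in the other samples. Without WT 2 the fold changes of Myh8, Myh1, Actn3, Tnnt3 and Tnni2 turned negative.

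**Figure D2:**
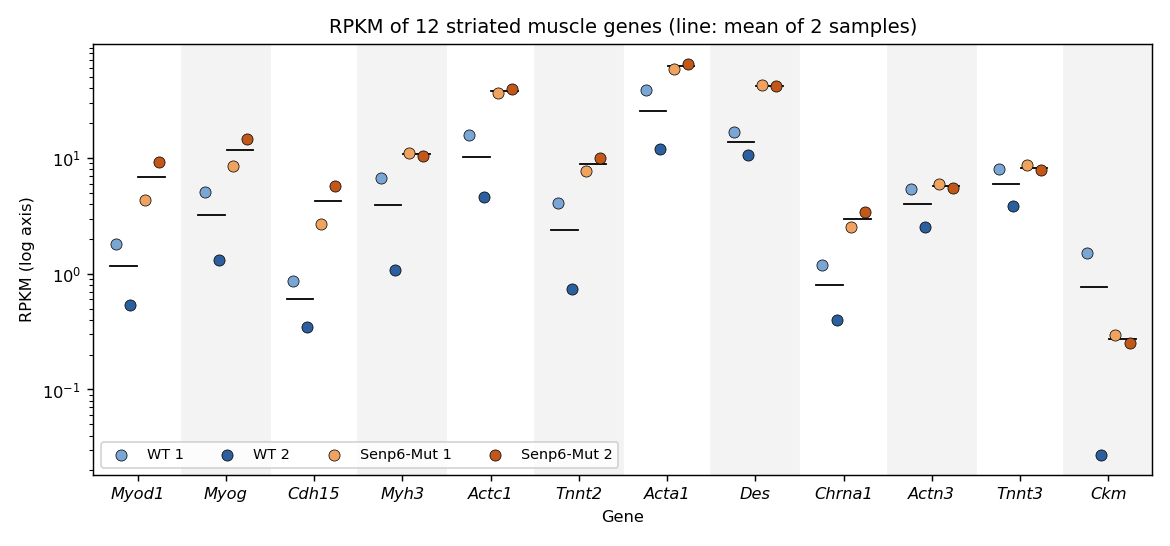
RPKM of 12 members in the 4 samples on a log axis, with 1 point per sample and a line at the mean of the 2 samples of a group. Myod1, Myog and Cdh15 are highest in Senp6-Mut 2, Actn3 and Tnnt3 have WT 1 beside the Senp6-Mut samples, and Ckm has WT 1 above both Senp6-Mut samples and WT 2 near the bottom of the axis.

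All 5 members shared by slow fibres or by the heart had both Senp6-Mut samples above both WT samples, where 25.3% of all tested genes did so. The median log2 fold change of these 5 was 1.68. Tnni1, slow troponin I, had 6.84 and 1.34 RPKM in WT 1 and WT 2 and 13.0 and 13.5 in Senp6-Mut 1 and 2. Tnnt1, slow troponin T, was read at 4.28 and 1.60 RPKM in WT 1 and WT 2 and 8.95 and 10.4 in Senp6-Mut 1 and 2. Troponin C of slow and cardiac muscle, Tnnc1, stood at 10.7 and 3.70 RPKM in WT 1 and WT 2 and 13.3 and 20.9 in Senp6-Mut 1 and 2. These 3 followed the common order, WT 2 lowest and WT 1 next, with log2 fold changes of 1.66 ± 0.64 (SE), 1.68 ± 0.45 and 1.20 ± 0.49.

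Myh7, the slow and beta-cardiac myosin heavy chain, broke that order. It had 7 and 11 counts in WT 1 and WT 2 and 139 and 74 in Senp6-Mut 1 and 2, the largest log2 fold change among the members at 3.18 ± 0.45 (SE), and it was the 1 tested member that was not higher in WT 1 than in WT 2 in CPM. Its level stayed low, at most 0.741 RPKM, and reads covered 12.2% and 15.7% of its length in WT 1 and WT 2 and 79.8% and 66.9% in Senp6-Mut 1 and 2. Mybpc1, a slow myosin-binding protein, had 50 and 2 counts in WT 1 and WT 2 and 154 and 123 in Senp6-Mut 1 and 2. With 2 counts in WT 2, its fold change of 1.92 ± 0.96 had the widest error among the members after Ckm.

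Of the 10 cardiac markers, 7 had at most 8 counts in any sample. Myh6, the alpha-cardiac heavy chain, had at most 2 counts, Myl7 (atrial light chain) at most 3, Myl2 at most 5, Nkx2-5 at most 2 and Nppa at most 8, and Mybpc3 was listed in no sample, while Nppb had 0 counts in both WT samples and 6 and 7 in Senp6-Mut 1 and 2. The other 3, Tnni3, Tbx20 and Gata4, reached the minimum count. Gata4, a transcription factor of the heart and other organs, had 22 and 55 counts in WT 1 and WT 2 and 136 and 29 in Senp6-Mut 1 and 2, or 0.309 and 0.620 against 1.29 and 0.303 RPKM, with the groups overlapping. Tnni3, cardiac troponin I, was at 1.34 and 0.762 against 0.680 and 1.41 RPKM for WT against Senp6-Mut, with the groups overlapping. Tbx20, a heart transcription factor, was the 1 tested cardiac marker with both Senp6-Mut samples above both WT samples, at 3 and 9 counts against 20 and 10. The separation was minimal, as WT 2 and Senp6-Mut 2 stood at 0.3426 and 0.3442 CPM. The summed RPKM of all 10 was 2.05 and 1.87 in WT 1 and WT 2 and 2.81 and 2.58 in Senp6-Mut 1 and 2.

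Among the genes that hold the sarcomere together, Acta1, the skeletal alpha-actin, was the most abundant member per length in every sample, at 38.6 and 11.9 RPKM in WT 1 and WT 2 and 58.9 and 65.5 in Senp6-Mut 1 and 2. Des (desmin), the intermediate filament that ties Z-discs to each other, had 16.9 and 10.5 RPKM in WT 1 and WT 2 and 42.6 and 41.9 in Senp6-Mut 1 and 2. Actn2, the alpha-actinin of all Z-discs, stood at 1.62 and 0.458 RPKM in WT 1 and WT 2 and 3.38 and 3.84 in Senp6-Mut 1 and 2. In each of these the Senp6-Mut samples were above both WT samples and close to each other. Des had the smallest error of all members, with means of 13.7 ± 4.48 in WT and 42.2 ± 0.520 RPKM in Senp6-Mut (SD, n = 2) and a log2 fold change of 1.58 ± 0.24 (SE), and it differed less between WT 1 and WT 2 than Acta1 did. Smooth muscle and other mesenchymal cells can also express Des. Beside it, 5 of 7 smooth muscle markers, Acta2 and Tagln among them, had both Senp6-Mut samples above both WT samples. For 1, Mylk, both were below, at 49.3 and 32.0 against 29.2 and 18.8 RPKM for WT against Senp6-Mut. Of all tested genes, 25.3% lay above in this way and 22.8% below. The smooth muscle list had a summed RPKM of 1444 and 1625 in WT 1 and WT 2 and 2105 and 1969 in Senp6-Mut 1 and 2, and their part in the result was not tested.

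The giant scaffold proteins were covered thinly. Ttn (titin), the molecular spring of the sarcomere, had 110 and 20 counts in WT 1 and WT 2 and 278 and 258 in Senp6-Mut 1 and 2, and these reads touched between 2.54% and 17.2% of its length. Neb (nebulin), the ruler of the thin filament, had 75 and 48 counts in WT 1 and WT 2 and 276 and 213 in Senp6-Mut 1 and 2. Xirp1, an actin-binding repeat protein of attachment sites, had 28 and 9 counts in WT 1 and WT 2 and 111 and 93 in Senp6-Mut 1 and 2. All 3 had both Senp6-Mut samples above both WT samples, where 25.3% of all tested genes did so. Their log2 fold changes were 1.56 ± 0.72 (SE), 1.57 ± 0.36 and 2.02 ± 0.58, while their RPKM stayed under 1 in every sample.

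For all 6 members that couple the nerve signal to contraction, both Senp6-Mut samples lay above both WT samples, where 25.3% of all tested genes did so. Their median log2 fold change was 1.76. Chrna1, the alpha subunit of the muscle acetylcholine receptor, had 1.19 and 0.399 RPKM in WT 1 and WT 2 and 2.52 and 3.41 in Senp6-Mut 1 and 2. Chrng, the gamma subunit that fetal receptors carry before it is replaced by the epsilon subunit, was read at 1.51 and 0.319 RPKM in WT 1 and WT 2 and 2.13 and 4.05 in Senp6-Mut 1 and 2. Chrna1 and Chrng, like the myogenic factors, were highest in Senp6-Mut 2, and their log2 fold changes were 1.86 ± 0.49 (SE) and 1.73 ± 0.67.

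Cacna1s, the voltage sensor of the transverse tubule, had 46 and 9 counts in WT 1 and WT 2 and 152 and 137 in Senp6-Mut 1 and 2. Ryr1, the calcium release channel that it opens, had 88 and 19 counts in WT 1 and WT 2 and 262 and 254 in Senp6-Mut 1 and 2. These partner genes were alike in both mutant cultures and in their log2 fold changes of 1.93 ± 0.69 (SE) and 1.80 ± 0.67. Casq2, which stores calcium in the sarcoplasmic reticulum of heart and slow fibres, was at 1.25 and 0.361 RPKM in WT 1 and WT 2 and 2.50 and 2.52 in Senp6-Mut 1 and 2. Atp2a1, the calcium pump of fast fibres, stood at 1.71 and 0.296 RPKM in WT 1 and WT 2 and 2.05 and 2.51 in Senp6-Mut 1 and 2, and with 1.15 ± 0.68 had the lowest log2 fold change of the 6.

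Ckm, the muscle creatine kinase that regenerates ATP in mature fibres, was the exception among the members. It had 45 and 1 counts in WT 1 and WT 2 and 13 and 10 in Senp6-Mut 1 and 2, so that WT 1 was the highest sample and WT 2 the lowest, with both Senp6-Mut samples between. The log2 fold change of -1.49 ± 1.22 (SE) rests on WT 1 alone, and without WT 1 it turned positive.

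**Figure D3:**
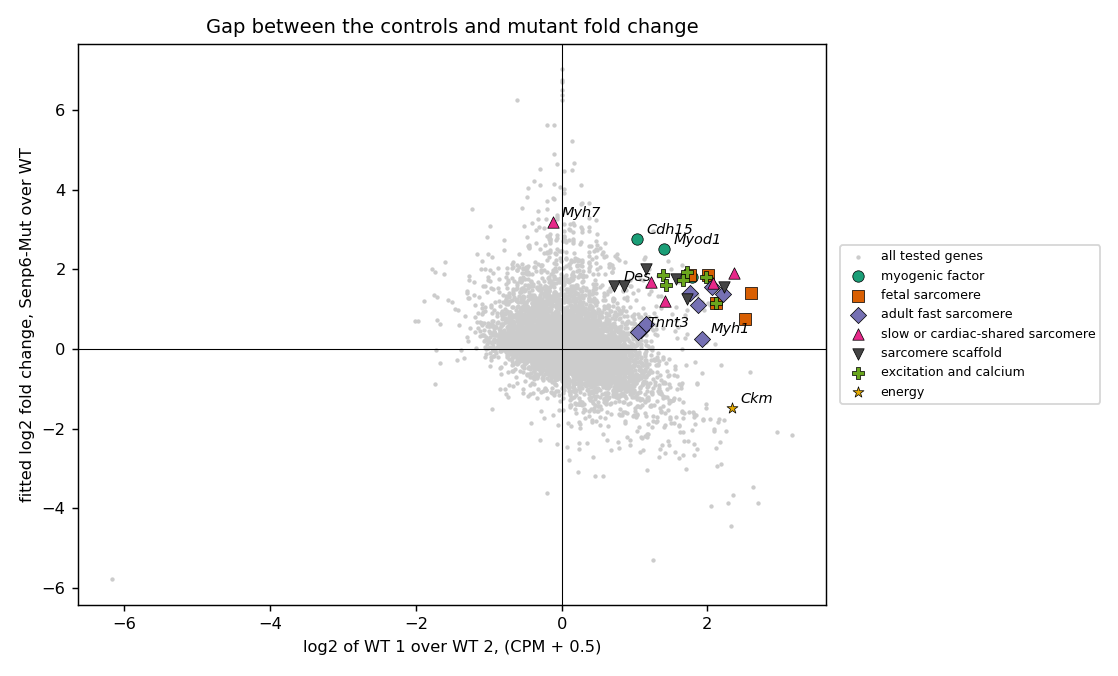
Gap between the control samples, log2 of WT 1 over WT 2 on (CPM + 0.5), on the horizontal axis against the fitted log2 fold change of Senp6-Mut over WT on the vertical axis, with members coloured by role and all 14123 tested genes in grey. The axes share the WT values, so no correlation is given. All members but Myh7 lie right of 0 on the horizontal axis, and Ckm is the 1 member below 0 on the vertical axis.

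The control samples differed from each other for most members. WT 1 was above WT 2 for 33 of 34 members and at least 2-fold above it in CPM for 32, all but Des and Myh7, where 5.50% of all tested genes were so. The reverse gap of at least 2-fold was seen for 0 members and 2.22% of all tested genes. On log2(CPM + 0.5), the median difference of WT 1 over WT 2 was 1.74 over the members, with a range from -0.12 to 2.60, beside the median log2 fold change of 1.57 between groups. On log2(RPKM + 1) the median differences were 0.97 between the controls and 1.15 between groups. The Senp6-Mut samples were at least 2-fold apart for 2 members, Myod1 and Cdh15, both higher in Senp6-Mut 2, where 3.06% of all tested genes were 2-fold apart, and the median difference of Senp6-Mut 1 over 2 on the log2(CPM + 0.5) scale was -0.037.

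Set against each control on its own, the mean of the Senp6-Mut samples was at least 2-fold above WT 2 for 34 of 34 members, where 6.81% of all tested genes were, and at least 2-fold above WT 1 for 13 of 34, where 6.82% were. Those 13 were Myod1, Myog, Cdh15, Actc1, Tnnt2, Myh7, Tnnt1, Actn2, Des, Neb, Xirp1, Cacna1s and Chrna1. On the log2(CPM + 0.5) scale the median difference was 2.45 against WT 2 and 0.79 against WT 1. Adipocyte markers were also higher in WT 1 than in WT 2 but had both Senp6-Mut samples below both WT samples for 3 of 4 tested genes, with a summed RPKM over 6 markers, Ucp1 being at 0, of 135 and 35.6 in WT 1 and WT 2 and 20.2 and 29.4 in Senp6-Mut 1 and 2. Osteoblast markers had the same order, with WT 1 above WT 2 and both Senp6-Mut samples below both WT samples for 3 of 3 tested genes, and a summed RPKM over 6 markers of 172 and 69.9 in WT 1 and WT 2 and 19.5 and 41.3 in Senp6-Mut 1 and 2. Macrophage markers had both Senp6-Mut samples below both WT samples for 5 of 6 tested genes and above for 1, but WT 1 above WT 2 for 3 of the 6. Of the Schwann cell markers, cells that accompany nerves, 4 of 4 tested had both Senp6-Mut samples above both WT samples, with Sox10 at 0.368 and 0.240 against 1.11 and 1.91 RPKM for WT against Senp6-Mut and a summed RPKM over 5 markers of 1.97 and 1.41 in WT and 3.48 and 4.45 in Senp6-Mut. Of all tested genes, 25.3% lay above in this way and 22.8% below. The part of these cell types in the result was not tested.

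Sarcomere proteins come in families of paralogs, and the share of each paralog in its family does not change when all members of the family change by the same factor. Myh3 made up 65.1% and 61.5% of the summed RPKM of 8 myosin heavy chain genes in WT 1 and WT 2 and 71.5% and 75.3% in Senp6-Mut 1 and 2. The share of Myh8 was 25.2% and 23.1% in WT and 18.9% and 16.6% in Senp6-Mut, and that of Myh1 was 7.30% and 8.28% against 3.94% and 3.57%. The embryonic heavy chain thus had a larger share in both Senp6-Mut samples than in either WT sample, and the perinatal and fast IIx heavy chains a smaller one. Myh3, Myh2, Myh1, Myh4 and Myh8 lie next to each other in the genome with 0 other coding genes between them and are much alike in sequence, so reads may have been split between them by the counting and these shares are uncertain.

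The embryonic actin showed the same order. Actc1 took 29.1% and 27.8% of the RPKM of both sarcomeric actins in WT 1 and WT 2 and 38.3% and 37.6% in Senp6-Mut 1 and 2, the rest being Acta1. WT 1 and WT 2 differed by little here although their summed actin RPKM was 54.4 and 16.5. The actin genes are also closely alike in sequence, so the split between them carries the same doubt.

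In troponin T, the fast gene Tnnt3 made up 49.2% and 62.1% of the family in WT 1 and WT 2 and 34.3% and 27.7% in Senp6-Mut 1 and 2. Slow Tnnt1 had 26.1% and 25.9% in WT against 35.3% and 36.8% in Senp6-Mut, and cardiac-type Tnnt2 24.7% and 12.1% against 30.4% and 35.4%. In troponin I, slow Tnni1 took 60.0% and 42.0% in WT against 81.7% and 69.4% in Senp6-Mut, and fast Tnni2 28.2% and 34.2% against 14.0% and 23.4%. Cardiac Tnni3 took the rest, 11.7% and 23.9% in WT against 4.27% and 7.23% in Senp6-Mut. Both troponin families therefore had a smaller fast share in each Senp6-Mut sample than in each WT sample. For troponin I this rests on few reads, as Tnni2 had 45 and 19 counts in WT 1 and WT 2 and 46 and 86 in Senp6-Mut 1 and 2. Troponin C did not, as the share of slow Tnnc1 was 72.2% and 85.0% in WT and 72.1% and 79.5% in Senp6-Mut. Among the essential light chains the embryonic Myl4 had 58.3% and 58.0% in WT against 49.9% and 52.7% in Senp6-Mut, and the fast Myl1 40.7% and 41.3% against 49.8% and 46.5%, so that here the embryonic gene had the smaller share in Senp6-Mut, unlike Myh3 and Actc1.

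**Figure D4:**
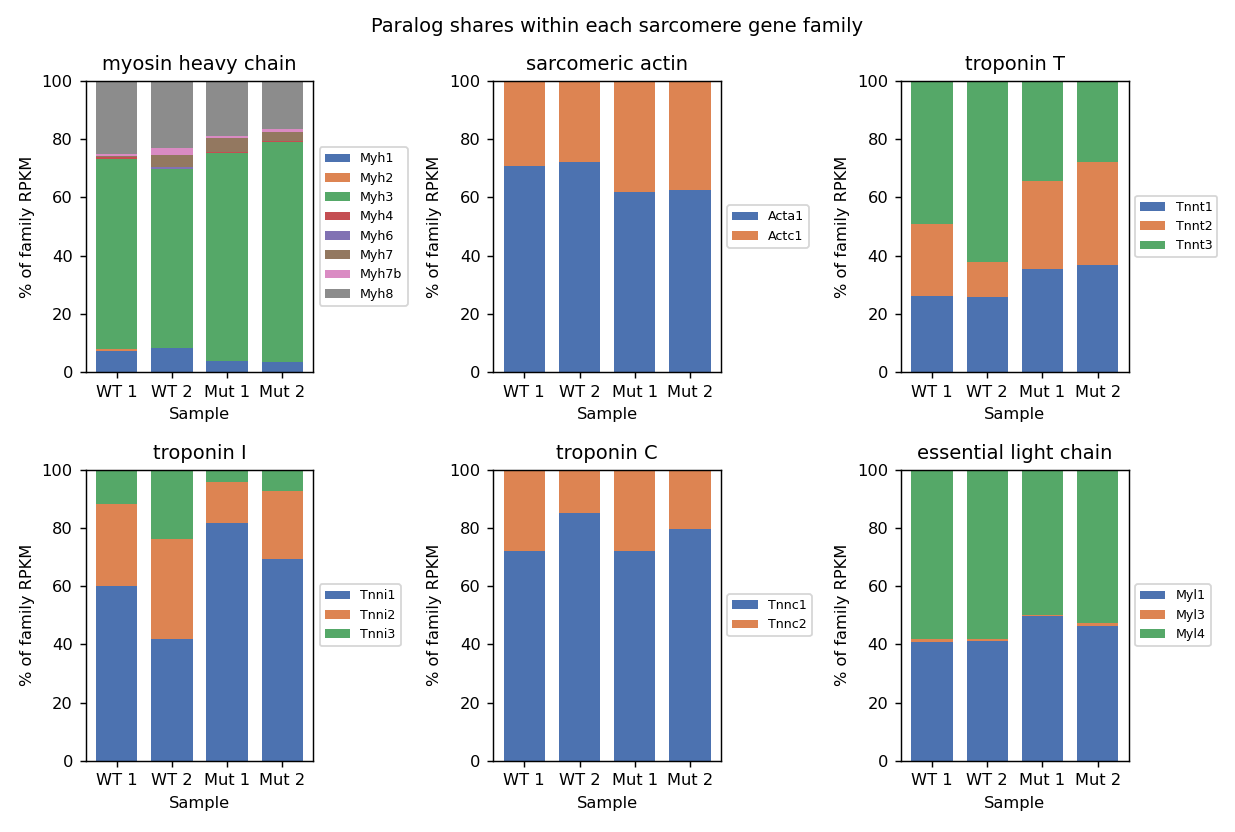
Share of each paralog in the summed RPKM of its family, in percent, for 6 sarcomere gene families, with 1 stacked bar per sample. Myh3, Actc1, Tnnt1, Tnnt2, Tnni1 and the fast Myl1 fill more of the bar in Mut 1 and Mut 2 (Senp6-Mut) than in either WT bar. Myh1, Myh8, Acta1, Tnnt3, Tnni2, Tnni3 and the embryonic Myl4 fill less, and the bars of troponin C overlap between groups.

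A scale chosen after the data were seen, the RPKM of each member as a percent of Acta1 in the same sample, compares members with each other when their summed level differs between samples. Myod1 was 4.66% and 4.51% of Acta1 in WT 1 and WT 2 and 7.30% and 14.2% in Senp6-Mut 1 and 2. Cdh15 was 2.26% and 2.94% against 4.59% and 8.79%, and Myog 13.3% and 11.0% against 14.5% and 22.4%. On this scale the controls were close to each other for the myogenic factors, and both Senp6-Mut samples lay above them. For Myog the separation was narrow, at 13.3% in WT 1 and 14.5% in Senp6-Mut 1. As a percent of the summed RPKM of all members, Myog stood at 2.68% in WT 1 and 2.72% in Senp6-Mut 1. Actn3 was 14.1% and 21.5% of Acta1 in WT and 10.1% and 8.45% in Senp6-Mut, and Tnnt3 20.9% and 32.2% against 14.7% and 12.0%.

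In all, both Senp6-Mut samples lay above both WT samples for 18 of the 34 members relative to Acta1, below for 4 (Myh1, Actn3, Tnnt3 and Tnni2) and overlapped for 12. Of all tested genes 1.04% lay above and 83.4% below on this scale, since Acta1 itself was higher in both Senp6-Mut samples, so the counts compare members with Acta1 and not with their own level in WT. As a percent of the summed RPKM of all members, 14 lay above, 5 below and 15 overlapped, and Acta1 itself was among the 5, where 0.864% of all tested genes lay above and 87.2% below. The 4 fast sarcomere genes were below on both scales. Des moved from above to overlapping, at 43.7% and 88.4% of Acta1 in WT 1 and WT 2 and 72.4% and 64.0% in Senp6-Mut 1 and 2. Ckm was 3.93% of Acta1 in WT 1 and between 0.227% and 0.503% in the other 3 samples.

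To see how far the pattern of the members extended, 116 other muscle genes in 7 lists were followed, of which 114 were listed and 96 were tested. Both Senp6-Mut samples lay above both WT samples for 51 of the 96 and below for 10, against the 25.3% and 22.8% of all tested genes given above, and the median log2 fold change was 0.46. The edgeR test called 0 of the 96 at an adjusted p under 0.05, and at an unadjusted p under 0.05 it had 27 higher and 4 lower, where 9.29% and 6.28% of all tested genes were. DESeq2 called 7 higher (Chrnb1, Chrnd, Dmd, Eno3, Itga7, Jam2 and Smyd1) and 1 lower (Lrp4), where it called 3.07% and 1.86% of all tested genes.

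The other sarcomere genes were most like the members, with 23 of 29 tested genes above, 1 below and a median log2 fold change of 1.07. The shares of all tested genes were 25.3% above and 22.8% below. Xirp2, a relative of Xirp1, had the largest log2 fold change of the list at 2.92 ± 0.67 (SE), from 0.0199 and 0.00959 against 0.156 and 0.0710 RPKM for WT against Senp6-Mut. Csrp3, a LIM protein that senses stretch at the Z-disc, had 2.31 ± 0.69, from 0.270 and 0.0724 against 0.641 and 1.07 RPKM. Tpm1 and Tpm3, tropomyosins that fibroblasts and chondrocytes also make, were the most abundant genes of the list and overlapped between groups on CPM with TMM factors. On RPKM, Tpm1 did not overlap, at 1093 and 1060 against 1239 and 1132 RPKM.

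Regulators and progenitor genes did not share the pattern, with 1 of 11 tested genes above, 1 below and a median of 0.09. Beside these counts, 25.3% of all tested genes lay above and 22.8% below. Mef2d, a partner of the myogenic factors in many tissues, had 24.6 and 19.6 against 25.1 and 24.8 RPKM for WT against Senp6-Mut and overlapped on CPM with TMM factors, though not on RPKM. Heyl, a Notch target, overlapped on both scales, at 0.147 and 0.169 against 0.377 and 0.0781 RPKM. Itga7, the laminin receptor of muscle, was the 1 gene above, at 3.57 and 2.77 against 5.63 and 6.65 RPKM with a log2 fold change of 0.91 ± 0.20 (SE).

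Among myoblast fusion genes 5 of 10 were above and 1 below, where 25.3% and 22.8% of all tested genes were, with a median of 0.20. Jam2, an adhesion protein that vascular cells also carry, had 1.20 and 1.76 against 3.77 and 5.62 RPKM for WT against Senp6-Mut and a log2 fold change of 1.62 ± 0.26 (SE). Mymk (Myomaker, listed as Tmem8c), the membrane protein that fusion requires, had 3.84 and 0.847 against 5.18 and 7.13 RPKM and 1.35 ± 0.62. Myof and Neo1, the most abundant of the list, had 0.12 ± 0.13 and -0.12 ± 0.15, and Myof was 1 of the 5 above. Jam2 was lower in WT 1 than in WT 2, unlike all tested members but Myh7, whereas Tmem8c followed the members' order.

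For excitation-contraction coupling 9 of 15 were above and 1 below, where 25.3% and 22.8% of all tested genes were, and the median was 0.51. Cacng1, the gamma subunit of the channel formed by Cacna1s, had 0.544 and 0.187 against 1.11 and 1.94 RPKM and a log2 fold change of 2.03 ± 0.59 (SE), and Stac3, an adaptor of that channel, 0.186 and 0.321 against 0.631 and 0.930 RPKM and 1.55 ± 0.47. Atp2a2, the calcium pump of slow fibres and of most other cells, had 0.22 ± 0.16, and the widely expressed Bin1 -0.02 ± 0.13. At the neuromuscular junction 5 of 9 were above and 1 below, beside the same shares of all tested genes, with a median of 0.53. Chrnd and Chrnb1, which complete the fetal receptor with Chrna1 and Chrng, had 0.174 and 0.0637 against 0.666 and 0.849 RPKM and 1.66 and 1.65 against 3.84 and 4.82 RPKM, with log2 fold changes of 2.65 ± 0.53 and 1.34 ± 0.23, so that all 4 subunits of the fetal receptor lay above. Dok7, an activator of the receptor-clustering kinase MUSK, had 2.19 ± 0.75, and Agrn, the nerve-derived signal to it, 0.53 ± 0.22. Lrp4, the agrin receptor, which also acts in bone cells, lay below at 9.54 and 8.44 against 5.97 and 5.26 RPKM with -0.72 ± 0.15.

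Dystrophin complex genes were above for 5 of 13 and below for 4, with a median of -0.03. Of all tested genes 25.3% lay above and 22.8% below, so nothing is read from these counts. The muscle-restricted sarcoglycan Sgca had a log2 fold change of 2.28 ± 0.60 (SE), whereas Sgce and Dag1, made in many tissues, had -0.34 ± 0.16 and 0.00 ± 0.15. Muscle metabolic genes were above for 3 of 9 and below for 1, again beside 25.3% and 22.8% of all tested genes, with a median of 0.09. Mb, the oxygen store myoglobin, had 0.552 and 0.205 against 1.87 and 1.29 RPKM and 2.05 ± 0.56, and the muscle enolase Eno3 6.46 and 8.98 against 12.0 and 18.7 RPKM and 0.95 ± 0.25, while Ak1 and Pfkm had 0.28 ± 0.16 and -0.12 ± 0.16.

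The gap between the controls was not shared by every gene that was higher in the mutants. WT 1 was at least 2-fold above WT 2 for 35 of the 96 list genes, where 5.50% of all tested genes were so. In 8 list genes with both Senp6-Mut samples above both WT samples and a log2 fold change of at least 0.9, the controls differed by less than 1.5-fold: Itga7, Jam2, Myh7b, Myot, Chrnb1, Dmd, Sgca and Eno3. These 8 were picked after their values were seen. The share of all tested genes that meet the same conditions was not counted, so nothing is read from their number. Among them, Myh7b had 6 and 7 counts and Myot 4 and 6 in WT 1 and WT 2, too few to measure such a gap. Chrnb1 had 1.66 and 1.65 against 3.84 and 4.82 RPKM for WT against Senp6-Mut, and Dmd, dystrophin itself, 0.158 and 0.179 against 0.428 and 0.498 RPKM with a log2 fold change of 1.41 ± 0.25 (SE).

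**Figure D5:**
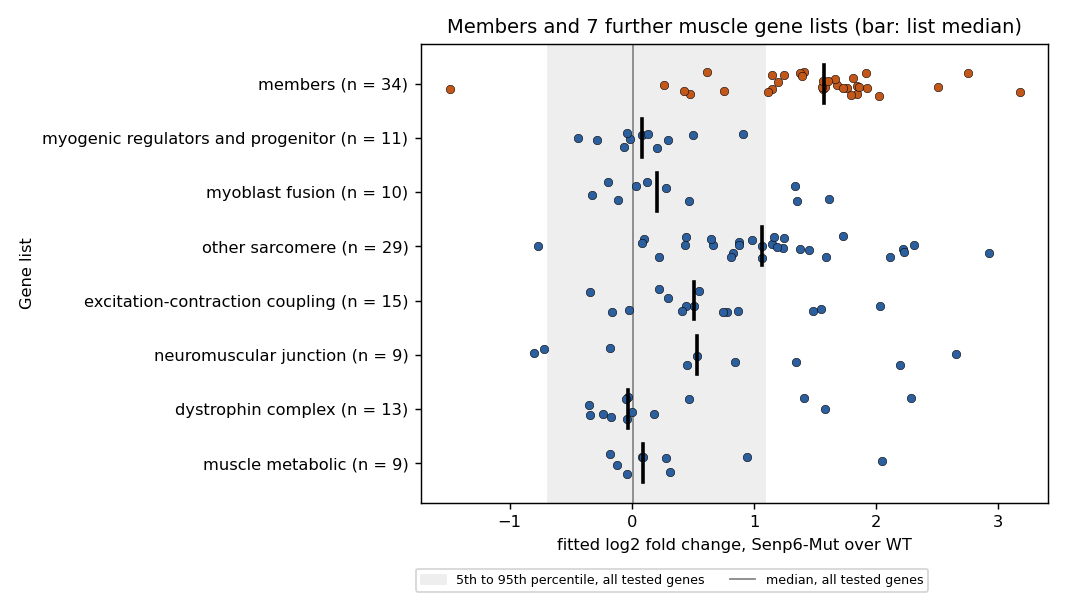
Fitted log2 fold change of Senp6-Mut over WT for the 34 tested members and the tested genes of 7 further muscle gene lists, with 1 point per gene, a bar at each list's median, a grey band from the 5th to the 95th percentile of all tested genes (-0.68 to 1.09) and a line at their median. The members and the other sarcomere genes sit to the right of the other lists, and the regulators, dystrophin complex and metabolic genes centre near 0.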

How the data were processed

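RNA of 2 WT and 2 Senp6-Mut rib chondrocyte cultures was enriched with oligo(dT), copied with random hexamers and sequenced by a service. The library protocol does not mark strand, so reads of a gene and an overlapping antisense gene cannot be told apart. Per the file headers, the authors deposited for each sample the count of reads per gene without normalization, the RPKM, the gene length and a coverage value, the percent of each gene's length that reads touched. The deposited RPKM equals the count divided by the length and by the sum of all counts of that sample. SAMtools and mm9 are named in the submitters' processing notes with no role, and the aligner and counter are not given in the sources used here. A gene absent from a sample's list was given a count of 0.

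From the counts, edgeR 4.0.16 in R 4.3.3 was fitted over all 14123 genes that reached 10 counts in 2 or more samples (TMM factors 0.966 to 1.03, robust quasi-likelihood test, Benjamini-Hochberg adjustment at 0.05), with standard errors taken from the F statistic. The alternatives were DESeq2 1.42.0, other size factors, other filters, limma 3.58.1 on log2(RPKM + 1) and log2(RPKM + 0.1), a replicate block, and leaving out each library. The scripts were tested on simulated data. Counts on tested genes summed to 21007449 to 30983806 per sample and limit precision for genes of a few reads, and floors cover counting error only. Replicate pairs differed far beyond sampling noise (chi-square over degrees of freedom 48.6 for WT and 23.7 for Senp6-Mut), so each sample was counted once.

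The members and all gene lists were chosen with earlier results of these data known. All members are named, those with a mean RPKM of at least 1 with values per sample. Of each further list, the 2 genes with the largest mean RPKM and the 2 with the largest absolute log2 fold change are named, and any called by edgeR. Promoters are those of RefSeq on GRCm38.p6 and were matched by symbol.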

Additional observations from a re-analysis of the deposited data

How the results depend on the processing

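The count of all genes called was the value that moved most. Against 0 higher and 0 lower in edgeR with TMM, DESeq2 called 434 and 263, no filter on low counts 225 and 61, library size alone 6 and 2, and the replicate number as a replicate block 84 and 33. Leaving out 1 library gave 96 to 1331 higher and 47 to 1492 lower. The replicate block had 1 member (Des) and 1 further list gene (Jam2) among its calls, at 0.595% of all tested genes higher and 0.234% lower. Whether the replicate numbers pair the samples is not known from the labels. The replicate differences of WT and Senp6-Mut correlated at -0.060 over 14123 genes. That value cannot decide it, since the Senp6-Mut samples also differed in sex. Of the 96 further list genes, 0 were called in edgeR, 7 higher and 1 lower in DESeq2, 4 higher without the filter, 1 higher under the block, and 2 to 29 higher and 0 to 6 lower with 1 library left out, the 29 without WT 1 and the 6 without WT 2. The members' median log2 fold change of 1.57 ran from 0.87 without WT 2 to 3.00 without WT 1, and from 1.15 to 1.84 under the other settings. The count of members above in both Senp6-Mut samples was 24 of 29 to 29 of 34 under the other settings, and 28 to 34 of 34 with 1 library left out, a choice added after the data were seen. The members' median log2 ratio of WT 1 over WT 2, 1.74, was 0.97 on log2(RPKM + 1), where the added 1 shrinks low genes. With counts in place of RPKM, the mean share of Actc1 was 26.1% in WT and 35.1% in Senp6-Mut, that of Tnnt2 37.3% in Senp6-Mut, and that of Myl4 55.1% in WT and 48.2% in Senp6-Mut. No member changed sign under another scaling, filter or tool. Genes of few reads, such as Ckm, Mybpc1 and Myh7, are limited by depth.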
